A study of Mus musculus with 4 samples.

Results

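The 5 genes of the NF-κB Rel family, Nfkb1, Nfkb2, Rel, Rela and Relb, were picked by symbol from the RNA-seq files of LPS-stimulated splenic B cells. All 5 were found among the 30041 genes listed in every file, and all 5 passed the filter on low scores that left 9727 genes for testing. By the study's methods, the 2 control samples came from Nfkbiz fl/Δ mice, which carry a floxed and a deleted Nfkbiz allele. The 2 cKO samples came from mice of the same Nfkbiz genotype that also carried Mb1-cre, in which Cre is expressed from the Cd79a (Mb-1) locus in B-lineage cells. Strain (C57BL/6), cell type and culture with LPS for 72 h were common to both groups, and the LPS dose is 20 mg/ml in the labels and 20 μg/ml in the methods. The B cells were isolated by removing cells that carry CD43, CD4 or Ter-119 on their surface. The controls carried no Cre, so an effect of Cre and an effect of the deletion cannot be told apart. The labels name no separate mice or cultures, and the p-values then measure only the spread between these samples.

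NF-κB transcription factors are dimers of Rel proteins, each with a Rel homology domain that binds DNA and partners. Rela (p65), Rel (c-Rel) and Relb carry a transactivation domain. Nfkb1 and Nfkb2 encode the precursors p105 and p100, which are processed to the DNA-binding subunits p50 and p52. In the canonical pathway, which LPS engages through TLR4, the IκB proteins are degraded and release dimers such as p50 with Rela or Rel. In the alternative pathway, used by CD40 and the BAFF receptor, processing of p100 releases p52 with Relb. IκB-ζ, the product of Nfkbiz, is an inducible nuclear IκB protein that binds NF-κB dimers, p50 in particular, and modulates transcription of their targets.

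On NCBIM37, the assembly also called mm9, the 5 genes lie on 4 chromosomes. Nfkb1 (Entrez 18033) spans 135247619 to 135354511 on the minus strand of chromosome 3, and Rel (Entrez 19696) spans 23641514 to 23670970 on the minus strand of chromosome 11. Nfkb2 (Entrez 18034) and Rela (Entrez 19697) are both on the plus strand of chromosome 19, from 46379227 to 46386580 and from 5637483 to 5648130. Relb (Entrez 19698) spans 20191566 to 20214787 on the minus strand of chromosome 7. In the GENCODE annotation the exons of Nfkb2 share 4 bases with Psd on the opposite strand, and no exon base of the other 4 genes lies in another gene.

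Genes of this family are known to be targets of NF-κB themselves, and the sequences upstream of their start sites are shown because the members with and without a κB match can then be set beside their scores. RefSeq promoter windows on GRCm38.p6 (250 bases before to 50 after a start site) were at hand for 3 of the 5 members, with 1 window each for Rel and Rela and 3 for Nfkb2. The 10-letter κB consensus was searched on both strands. The 110 bases just before the start site are printed in the direction of transcription, with κB matches in capitals, for Rel (chr11:23770970-23771079, minus strand), for the most upstream Nfkb2 start site (chr19:46304627-46304736, plus strand) and for Rela (chr19:5637431-5637540, plus strand).
Rel: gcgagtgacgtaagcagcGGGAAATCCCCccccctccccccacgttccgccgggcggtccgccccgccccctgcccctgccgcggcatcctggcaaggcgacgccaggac
Nfkb2: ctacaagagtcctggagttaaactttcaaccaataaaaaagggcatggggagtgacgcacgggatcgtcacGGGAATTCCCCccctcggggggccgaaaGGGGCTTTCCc
Rela: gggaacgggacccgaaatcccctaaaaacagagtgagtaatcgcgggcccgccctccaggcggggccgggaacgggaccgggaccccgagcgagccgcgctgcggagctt

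Counting the last base before the start site as -1, the match begins at -92 in Rel and at -39 and -11 in Nfkb2. Matches on both strands that overlap in these letters are marked as 1 run. The Rela window holds no match, and over the 3 members 4 of the 5 windows held at least 1 match. The Nfkb2 windows that begin at 46305445 and 46305680 overlap. The match at 11 in the former and the match at -225 in the latter are the same site. That site was thus counted in both windows, and the windows of a gene are not independent. Of all 32851 windows of 300 bases, 8.46% held at least 1 match. A match in these letters is not a binding site, and binding was not measured in these samples.

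The scores themselves have no unit in the study's text. Low scores multiplied by exon length tended towards multiples of a step. The mean cosine alignment ranged from 0.547 in cKO 1 to 0.619 in control 2, where 1 would be exact. Such a step is what reads per exon base, scaled to library size, would give, and that unit is an inference. On that inference the libraries held 17400000 to 19800000 reads. The scores multiplied by GENCODE exon lengths, however, summed to 1.55 to 1.59 times those reads, where a sum of at most 1 would be due, so the inferred reads and counting errors given here are approximate. Levels of different genes are compared per length on the same inference. The scores of a sample summed to between 604.2 and 637.6, and the medians over the tested genes lay between 0.0173 and 0.0176. The deleted gene Nfkbiz had scores of 0.0241 and 0.0226 in the control samples and 0.0127 and 0.0116 in the cKO samples, so both cKO values lay below both control values (-0.94 ± 0.096 SE on the log2 scale, adjusted p = 0.0282 by limma). The lower Nfkbiz score went with the cKO label in both samples.

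Among the Rel subunits none passed the test in cKO B cells, while 4 of the 5 had higher scores in both cKO samples than in both control samples. By limma with Benjamini-Hochberg adjustment over 9727 genes, the lower genes made up 1.25% of those tested and the higher genes 0.812%, and 0 of the 5 subunits were among them. At an unadjusted p under 0.05, 2169 of the 9727 genes and 0 of the subunits would have been called, but Nfkb1 or Rel came under 0.05 unadjusted in some of the alternative fits. Both cKO scores lay above both control scores for 28.1% of all genes tested, and below them for 30.1%. The count over the subunits was 4 above and 0 below, and no test of the list was made. The changes were small beside that of Nfkbiz, from a log2 fold change of -0.12 for Nfkb2 to 0.21 for Rel. Beside other genes they lay on both sides of the median absolute log2 fold change, which was 0.154 over all genes tested. Rel and Nfkb1 (0.17) exceeded that median in size, while Nfkb2, Rela and Relb lay below it. The 95% confidence intervals of all 5 lay within 0.5 on the log2 scale in either direction, as did those of 60.0% of the genes tested. In bulk RNA, fewer cells with a transcript and less transcript per cell cannot be told apart.

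**Figure D1:**
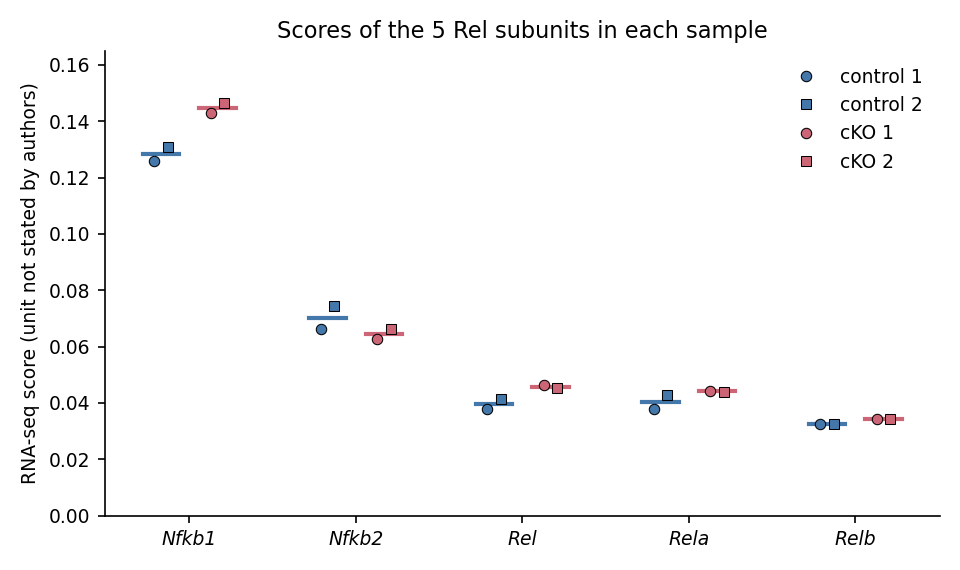
RNA-seq score (vertical axis, linear, from 0) of each Rel subunit in the 2 control (blue) and 2 cKO (red) samples; circles are sample 1, squares sample 2 and bars the group means. Nfkb1 stands highest in all 4 samples, and the groups overlap only for Nfkb2.

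Nfkb1, the gene of p105 and p50, had the highest score of the family in every sample. Its scores were 0.126 and 0.131 in the control samples and 0.143 and 0.146 in the cKO samples. The cKO values were both above the control values, and each pair of samples was closer together than the groups were. The group means were 0.128 ± 0.00354 and 0.145 ± 0.00243 (SD, n = 2 each), a fold of 1.13 by geometric means. The log2 fold change was 0.17 (standard error 0.077, 95% interval -0.015 to 0.36, limma adjusted p = 0.254). As a level, its score exceeded those of 93.0 to 94.5% of the genes tested, depending on the sample.

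Nfkb2, the gene of p100 and p52, came second in every sample and was the one subunit whose mean was lower in cKO B cells. Its scores were 0.0662 and 0.0743 in the control samples and 0.0627 and 0.0662 in the cKO samples. The groups overlapped, since control 1 and cKO 2 had nearly the same score and control 2 stood above the other 3 samples. The means were 0.0703 ± 0.00576 and 0.0645 ± 0.00252 (SD, n = 2 each). The log2 fold change was -0.12 (standard error 0.094, 95% interval -0.35 to 0.11, limma adjusted p = 0.471). Without control 2 it was -0.04, and without control 1 it was -0.21.

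Rel, the gene of c-Rel, the transactivating subunit most tied to lymphocytes, had scores of 0.0377 and 0.0414 in the control samples and 0.0462 and 0.0455 in the cKO samples. Both cKO samples were higher than both controls, and control 1 was the lowest. The log2 fold change of 0.21 was the largest of the family (standard error 0.088, 95% interval -0.0036 to 0.43, limma adjusted p = 0.229). It was 0.15 without control 1 and 0.28 without control 2. In terms of fold, the geometric means differed by 1.16.

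Rela, the gene of p65, had scores of 0.0380 and 0.0428 in the control samples and 0.0442 and 0.0440 in the cKO samples. The cKO samples were both above the controls, but control 2 lay closer to them than to control 1. The log2 fold change was 0.13 (standard error 0.093, 95% interval -0.10 to 0.36, limma adjusted p = 0.446), and it was 0.04 without control 1 and 0.21 without control 2.

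Relb, the partner of p52 in the alternative pathway, had the lowest score of the family and the closest pair of control samples. Its scores were 0.0325 in each control sample and 0.0344 and 0.0343 in the cKO samples. The groups did not overlap, and the difference of the means was a fold of 1.06. The log2 fold change was 0.08 (standard error 0.079, 95% interval -0.12 to 0.27, limma adjusted p = 0.583). The control pair of Relb differed by 0.0307%, less than the counting error of about 2.1% that its inferred 2242 and 2306 reads give. The spread of that pair alone is thus no measure of the error, and limma sets a larger one from genes of like level.

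**Figure D2:**
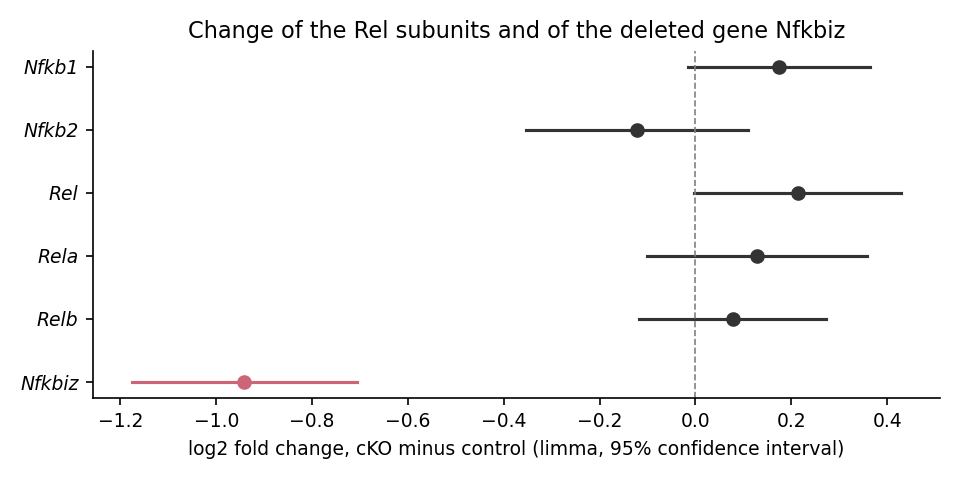
Log2 fold change of cKO minus control on the log2(score + 0.0001) scale (horizontal axis) with its limma 95% confidence interval, for the 5 Rel subunits (black) and for Nfkbiz (red). The intervals of the subunits all include 0 and lie within 0.5 of it, while that of Nfkbiz runs from -1.18 to -0.71.

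The order of the levels, as scores per exon length, was Nfkb1, then Nfkb2, then Rela and Rel, then Relb. Nfkb1 exceeded Nfkb2 by 1.76- to 2.28-fold and Relb by 3.87- to 4.28-fold. Nfkb2 exceeded Rela by 1.42- to 1.74-fold. Rela and Rel changed places between the groups, with a ratio of Rel to Rela of 0.993 and 0.968 in the control samples and 1.05 and 1.03 in the cKO samples. The ratio lay 0.737 and 3.18% from 1 in the control samples, with counting errors of 3.29 and 3.08%, and 4.52 and 3.39% from 1 in the cKO samples, with counting errors of 2.85 and 3.06%. Rel and Rela were thus the closest neighbours in the order, and with 2 samples a group no order between them was established. Rela exceeded Relb in all 4 samples, by 1.17- to 1.32-fold. The 2 samples of a group always had the same order.

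Seen within each sample, which removes any scaling between libraries, the balance among the subunits differed most for Nfkb2. All of its 4 ratios to other subunits were shifted in the same direction in cKO B cells, with no overlap of the groups. These 4 ratios all contain Nfkb2, and Nfkb1 to Relb, Rel to Rela and Rel to Relb did not overlap either. Among single genes tested, both cKO scores lay above both control scores for 28.1% and below them for 30.1%. The share over ratios of other gene pairs was not computed. Nfkb1 stood at 1.90 and 1.76 times Nfkb2 in the control samples and at 2.28 and 2.21 times in the cKO samples. Nfkb2 stood at 1.75 and 1.79 times Rel in the control samples and at 1.36 and 1.46 times in the cKO samples, the widest shift of the 10 ratios (cKO minus control -0.34 on the log2 scale). Nfkb2 against Rela fell from 1.74 in both control samples to 1.42 and 1.51, a log2 difference of -0.25, and against Relb the log2 difference was -0.20. The difference against Relb depended on the controls, at -0.12 without control 2 and -0.28 without control 1.

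The ratios among the other 4 subunits moved less, by -0.04 to 0.14 on the log2 scale. Nfkb1 to Rel and Nfkb1 to Rela overlapped between the groups, as did Rela to Relb. Rel to Relb, at 1.16 and 1.27 in the control samples, was 1.34 and 1.33 in the cKO samples. The exact permutation test (two-sided) on 2 samples against 2 cannot go below 0.33, and all non-overlapping ratios had that p, so no ratio can be called different. The 10 ratios share 5 genes and are not independent of each other.

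**Figure D3:**
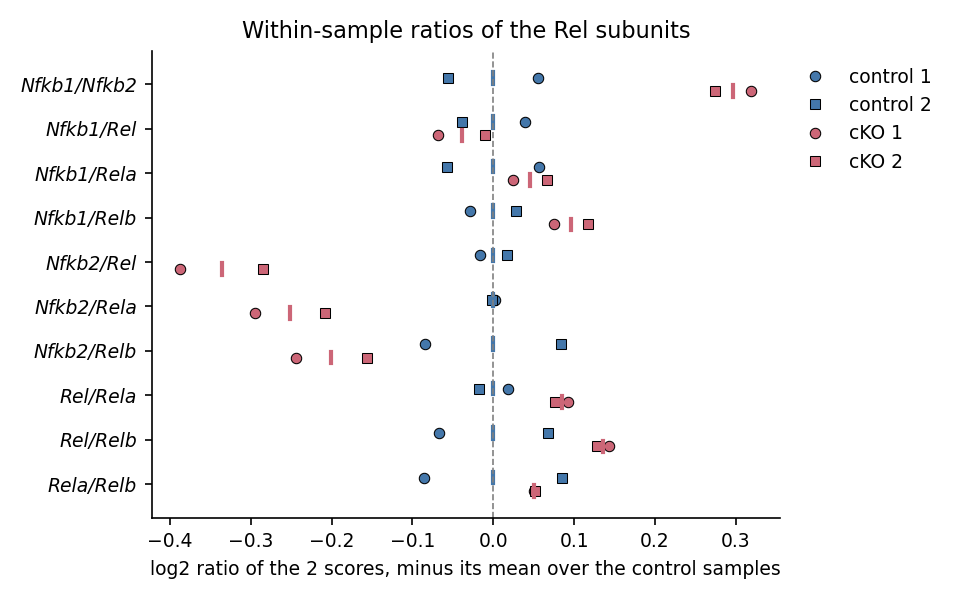
Log2 ratio of the scores of each pair of Rel subunits in each sample, minus the mean ratio of the 2 control samples (horizontal axis); circles are sample 1, squares sample 2, blue control, red cKO, and short vertical bars the group means. The 4 pairs with Nfkb2 show the widest gaps, of 0.20 to 0.34 in size.

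As shares of the summed score of the family, Nfkb1 made up 41.9 and 40.6% in the control samples and 43.3 and 43.5% in the cKO samples. Nfkb2 made up 22.0 and 23.1% in the control samples and 19.0 and 19.7% in the cKO samples, 3.24 percentage points less on average. The share of Rel was 12.6 and 12.9% in the control samples and 14.0 and 13.5% in the cKO samples. Those of Rela (12.7 to 13.4%) and Relb (10.1 to 10.8%) overlapped between the groups. For Nfkb2 the shares did not overlap between the groups while the scores did, with a lower mean score of Nfkb2 and higher mean scores of the other 4 genes in cKO B cells. The summed score was 0.300 and 0.322 in the control samples and 0.331 and 0.336 in the cKO samples (exact permutation p = 0.333, two-sided, for the sum and for the shares of Nfkb1, Nfkb2 and Rel).

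**Figure D4:**
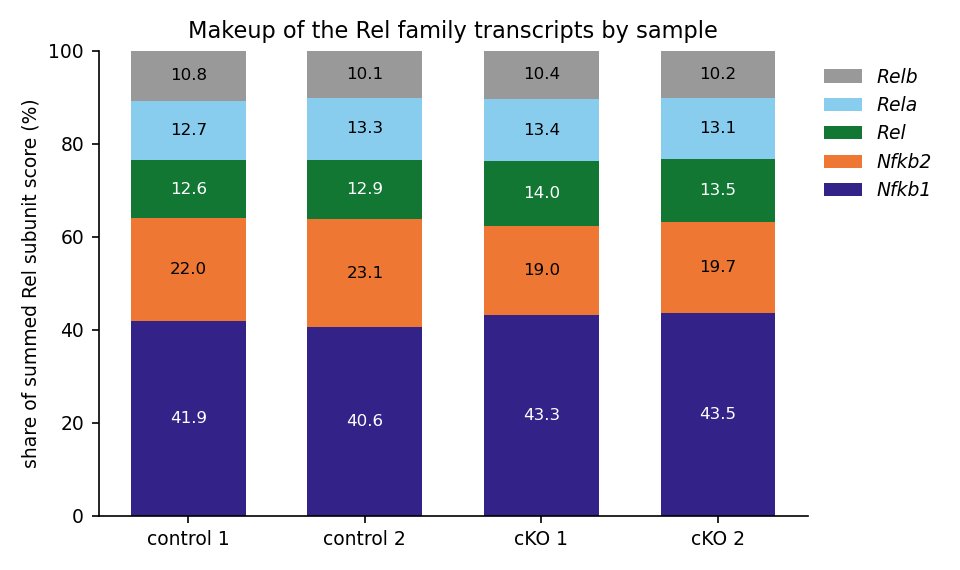
Share of each Rel subunit in the summed score of the 5 genes (vertical axis, percent), 1 bar per sample, with the share printed in each segment. Nfkb2 takes 22.0 and 23.1% of the control samples and 19.0 and 19.7% of the cKO samples.

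Around the subunits, the other genes of the pathway were read from 7 lists holding 103 different genes, of which 97 were tested. Of these, 1 was lower and 2 were higher in cKO B cells by limma at an adjusted p under 0.05, or 1.03 and 2.06%, beside 1.25 and 0.812% of all genes tested. Their median log2 fold change was 0.05, against -0.01 for all genes.

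Among the 6 IκB genes, which encode the proteins that hold or modulate Rel dimers, Nfkbiz was the one that passed the test, and it is the deleted gene. Nfkbid, the gene of the nuclear protein IκB-NS, had scores of 0.0190 and 0.0219 in the control samples and 0.0310 and 0.0295 in the cKO samples (log2 fold change 0.56, limma adjusted p = 0.0620). Nfkbia, the gene of IκBα and a classical NF-κB target, had 0.166 and 0.1703 in the control samples and 0.138 and 0.149 in the cKO samples (log2 fold change -0.23, limma adjusted p = 0.188). Neither Nfkbid nor Nfkbia passed.

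Of the 19 tested genes upstream in the canonical pathway, 0 passed the test, with a median log2 fold change of 0.09. Tab2, an adaptor of the kinase TAK1, had the largest change (0.40, limma adjusted p = 0.203). Of the 8 tested genes of the alternative pathway, 0 passed, with a median of 0.03. The largest change there was that of Tnfrsf13b, which encodes the receptor TACI, with scores of 0.163 and 0.140 in the control samples and 0.0988 and 0.111 in the cKO samples (-0.53, limma adjusted p = 0.0793). Map3k14, the gene of the kinase NIK that starts p100 processing, had a log2 fold change of 0.24 (limma adjusted p = 0.231).

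None of the 9 genes for processing p105 and p100 passed, with Tnip2, a partner of p105, the most changed (0.37, limma adjusted p = 0.139). The 11 tested negative regulators gave 0 calls, led in size by Rnf11, a subunit of the A20 complex (0.35, adjusted p = 0.126). The 13 tested cofactors and modifiers of Rel proteins gave 0 calls as well, with the acetyltransferase gene Crebbp the most changed (0.34, limma adjusted p = 0.156).

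Of 36 tested genes known as NF-κB targets, 2 were higher and 0 lower, with 18 positive and 18 negative log2 fold changes and a median of -0.01. Ccl3, the gene of a chemokine, rose from 0.0141 and 0.0164 in the control samples to 0.0451 and 0.0361 in the cKO samples (log2 fold change 1.40, limma adjusted p = 0.0267). Cd80, the gene of a costimulatory ligand, rose from 0.00968 and 0.00848 to 0.0235 and 0.0178 (log2 fold change 1.17, limma adjusted p = 0.0345). The changes of these target genes ran from -0.78 for the cyclin gene Ccnd2 to 2.05 for the chemokine gene Ccl4. Neither Ccnd2 nor Ccl4 passed (limma adjusted p = 0.146 and 0.0991). The control scores of Ccl4 were far apart, at 0.00995 and 0.0286 (standard error of the change 0.467). A range widens with the number of genes, so that of the 36 targets cannot be set against that of the fewer subunits.

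**Figure D5:**
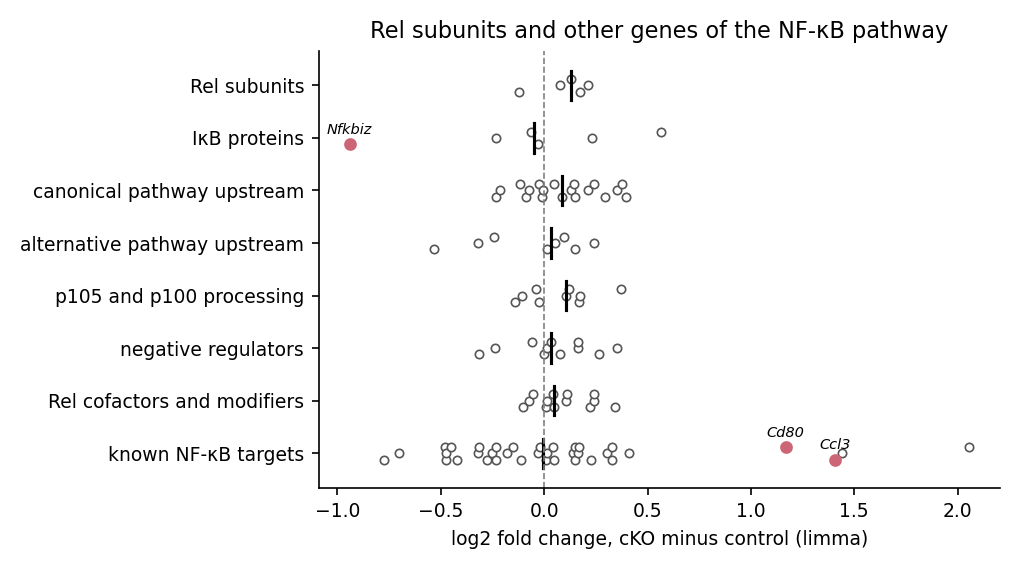
Log2 fold change of cKO minus control (horizontal axis) for the tested genes of the Rel family and of 7 lists of NF-κB pathway genes; each point is a gene, filled red where the limma adjusted p is under 0.05, and vertical bars are list medians. The Rel subunits lie between -0.12 and 0.21, and the 3 filled points are Nfkbiz, Cd80 and Ccl3.

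The genes whose profile over the 4 samples was most like that of a subunit were found by the root mean square difference of the log2(score + 0.0001) values, each gene centred on its own mean. The closest to Nfkb1 were Ranbp10 (0.0056) and Mtf2 (0.0061), those to Nfkb2 were Il27ra (0.0060) and Nt5c (0.0074), and those to Rel were LOC100503548 (0.0049) and Rin3 (0.0076). For Rela they were Dgkd (0.0071) and Rnf181 (0.0079), and for Relb Pitpna (0.0036) and BC005537 (0.0058). Between 287 and 930 genes lay within 0.05 of a subunit, so over 4 samples such likeness is common. Within the family the closest pair was Nfkb1 and Rel (0.0393), and Nfkb2 was no closer than 0.12 to any other subunit.

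The scores of the 8 B cell markers summed to 2.79 and 3.14 in the control samples and to 2.77 and 2.76 in the cKO samples, more than those of any other marker list. Of these markers 1 was lower by the test, Cd79a, whose locus carries the Cre in cKO mice (-0.78 on the log2 scale, limma adjusted p = 0.0294). The scores of the 11 T and NK cell markers summed to 0.0452 and 0.0594 in the control samples and to 0.0877 and 0.0807 in the cKO samples, most of it from Lck (0.83 on the log2 scale, limma adjusted p = 0.0734). The T cell receptor complex genes Cd3d, Cd3e and Cd3g reached at most 0.0006 in any sample, and Cd8b1 at most 0.00225. Nkg7, a gene of cytotoxic cells, was too low to be tested, at 0.00041 and 0.00033 in the control samples and 0.00175 and 0.00124 in the cKO samples. Cd4, which marks cells removed in the isolation, was at 0 in 3 of the 4 samples. Those of the 11 myeloid markers summed to 0.177 and 0.171 in the control samples and to 0.209 and 0.211 in the cKO samples, with S100a9 at 0 in all samples. Itgam gave most of the myeloid sum and had a log2 fold change of 0.0033 (limma adjusted p = 0.988), while Lyz1 and Lyz2, near-identical copies whose reads may be split between them, had 1.46 and 1.39 (limma adjusted p = 0.0986 and 0.0961). Csf1r, Emr1 and Cd14, too low to be tested, were higher in both cKO samples than in both control samples. Itgax, S100a8, Csf3r and Mpo, also too low, overlapped between the groups. The 4 subunits with higher cKO scores moved in the same direction as these sums, and the part of other cells in their scores was not tested. The 6 erythroid markers summed to 0.0134 in control 1 and to at most 0.00263 in the other samples. The sum of the 4 plasma cell markers was 0.252 and 0.191 in the control samples and 0.201 and 0.158 in the cKO samples, with changes in both directions. Prdm1 was lower by the test (-2.82 on the log2 scale, limma adjusted p = 0.0429), while Igj (-0.86, limma adjusted p = 0.1303), Sdc1 (0.77, limma adjusted p = 0.116) and Xbp1 (0.11, limma adjusted p = 0.729) did not pass.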

How the data were processed

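RNA-seq was done on 2 control and 2 cKO samples of LPS-stimulated splenic B cells. The authors purified poly(A) RNA, sequenced 38-base reads on an Illumina IIx, aligned them by TopHat against mm9, applied a base quality minimum and filtered out rRNA and tRNA. They deposited a score for every Entrez gene and sample, printed to 5 decimals. The step from mapped reads to the score is not given in the sources used here. The submitters' processing notes also name CASAVA 1.8, Bowtie, TopHat2 2.0, SAMtools and bedtools.

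From the deposited scores, any gene that reached 0.005 in a sample was kept. After a log2 transformation (pseudocount 0.0001), groups were compared by limma 3.58.1 under R 4.3.3, using lmFit and a trended eBayes. P-values were adjusted by Benjamini-Hochberg, and the threshold was 0.05. The fold changes are on that scale. A score above 0.05, the filter the study states, was run as an alternative. Ratios, shares and exact permutation tests were computed with Python 3.11.15, numpy 2.4.6, pandas 2.3.3 and scipy 1.17.1. The depth was inferred from low scores of genes with a single transcript in GENCODE. Reads per gene use the exon length of that annotation, and counting errors cover counting only. Alignment was poor at 1/2 and 1/3 of the inferred depth. The limma fit and the depth search were also run on simulated data, with outcomes not given here. The changes simulated for limma were larger than those of any subunit.

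The members and lists were chosen with earlier results of these data known. Genes named beside the subunits are Nfkbiz, in each pathway list up to 3 genes a direction past the threshold or else the most changed gene, and the 2 genes closest in profile to each subunit. Nfkbid, Nfkbia, Map3k14, Ccnd2, Ccl4 and the cell markers named were chosen after their values were seen. Protein sequences were not used here.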

Additional observations from a re-analysis of the deposited data

How the results depend on the processing

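The alternatives comprised other pseudocounts (0.001 and 0.00001), a filter above 0.05 or none, no variance trend, scaling to equal medians, quantile normalization, a replicate block and leaving out each sample in turn. A crossed replicate block was added after the data were seen. With the filter above 0.05, Rel, Rela and Relb were not tested. For the subunits 62 values were computed, and all 62 kept their direction. In many of these the direction could not change. The filters, the variance trend and the replicate blocks left the log2 fold change as in the main fit. Leaving out a sample cannot reverse a change where the groups do not overlap, as for Nfkb1, Rel, Rela and Relb. In the fits with every sample no subunit passed, with limma adjusted p from 0.134 to 0.798. On the log2 scale the change lay between 0.15 and 0.27 for Nfkb1, between -0.21 and -0.04 for Nfkb2, between 0.15 and 0.28 for Rel, between 0.04 and 0.21 for Rela and between 0.07 and 0.09 for Relb. For Nfkb1 the highest value came from quantile normalization. Unadjusted limma p-values fell under 0.05 for Nfkb1 with quantile normalization (0.0113) and no filter (0.0367), and for Rel with these (0.0445 and 0.0420), the crossed replicate block (0.0338) and without control 2 (0.0299). The number of genes called over all genes, 122 lower and 79 higher, depended more on the setting. It was 22 and 11 without the variance trend and 0 and 0 with no filter. None of the genes named here as passing, such as Nfkbiz, Ccl3 and Cd80, thus passed with no filter. In that fit limma gave 1538 lower and 1665 higher genes at an unadjusted p under 0.05 among 21582 tested. With the filter above 0.05, 35 were higher. Leaving out a sample gave 0 to 391 lower and 0 to 439 higher genes. It gave 0 and 0 without either cKO sample (519 and 428 at an unadjusted p under 0.05 without cKO 1, 982 and 767 without cKO 2). Without control 1, 136 were higher, and 391 and 439 were called without control 2. The cause was not tested, beyond the lone sample being assumed to vary like the others. Same-numbered samples correlated at -0.145 (Pearson) and -0.291 (Spearman), on deviations from the group means across genes. With 2 samples per group these deviations mirror each other, so the sign depends on how the samples were numbered. The labels name no shared mouse, litter or day, so the samples were not treated as paired. The fit with a replicate block called 180 lower and 177 higher genes, and with the crossed replicate block 230 and 212. The differences in the subunit shares of Rela and Relb and in the ratios of Nfkb1 to Rela and Rela to Relb changed sign when a sample was left out. Every ratio with Nfkb2 kept its direction, with Nfkb2 to Relb between -0.28 and -0.12. Where the groups do not overlap, leaving out a sample cannot change the sign. The kept direction of the Nfkb2 ratios thus adds nothing to their lack of overlap.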
